A study of Macaca mulatta with 30 samples.

Results

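The genes described here build, fold and ship proteins that enter the endoplasmic reticulum (ER), the compartment in which secreted and membrane proteins begin. They were chosen by symbol, from a name pattern covering the signal recognition particle, the translocon, signal peptidase, oligosaccharyltransferase, the folding enzymes, the unfolded protein response and the COPII and COPI vesicle coats with their cargo receptors. Of 14133 genes measured by a probeset with 1 symbol, 64 matched, and each was read from the probeset with its highest mean signal among 136 matching probesets. The name pattern used no measured value, but it was chosen with earlier results of these data known. No filter on low signal was applied, so all 64 were tested. The signal of 49 was above the array median on all 30 arrays. The pattern also took in SEC14L1 to SEC14L5, a family of lipid-binding proteins that is not part of ER translocation, and these 5 are kept apart below.

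Total RNA of rhesus macaques (Macaca mulatta) from cerebral cortex, pancreas, testis, thymus and a line of immortalized fibroblasts was run on rhesus macaque GeneChips at centers in Oregon, Nebraska and Yerkes. Each center labeled 2 aliquots of each RNA, which gave 30 arrays, 6 from each tissue. No treatment, age or strain is given in the labels. There was 1 RNA sample per tissue, so the 6 arrays are technical and every p-value below measures the spread of labeling and hybridization only. Cortex RNA was supplied by Yerkes and fibroblast RNA by Nebraska, so for these sources the tissue and the supplying site cannot be told apart, while pancreas, testis and thymus all came from Oregon. The study reported lower quality for the pancreas arrays than for the others and advised caution with them. It cited their larger scaling factors, which bring each array to a common mean, and their larger standard errors. The part of array quality in the pancreas signals was not tested.

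A protein bound for secretion is recognized by its signal peptide as it leaves the ribosome, is docked at the ER by the signal recognition particle and is threaded through the SEC61 channel. Signal peptidase then removes the signal peptide, oligosaccharyltransferase adds sugar chains, and chaperones with protein disulfide isomerases fold the chain. COPII coats bud finished cargo toward the Golgi, while COPI coats return escaped ER residents that KDEL receptors have caught. Pancreatic acinar cells, which export digestive enzymes, and fibroblasts, which export collagen and other matrix, are known for a heavy load on this route.

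Values are log2 signals, so a difference of 1 is a doubling of signal. With limma, fitted over all 30 arrays with a center term, a tissue was called higher for a gene if its signal exceeded that of every other tissue (adjusted p below 0.05 in all 4 pairs). A tissue called lower fell below every other by the same threshold. Each difference is given from the nearest other tissue, with its standard error (SE). Marker genes of each tissue were read first. All 6 acinar markers and GCG, the glucagon gene of islets, were called higher in pancreas, all 6 matrix genes in fibroblast, all 3 thymocyte markers measured in thymus, all 5 neuronal and glial markers in cortex, and 3 of 4 germ cell markers with all 3 somatic markers in testis. The exception was PRM1, a protamine of sperm, which was called higher in pancreas by 0.42 (SE 0.08) and lower in testis, with a difference of -0.19 (SE 0.08). PRM1 means ran only from 6.35 in testis to 6.99 in pancreas, near the array medians of 5.95 to 6.81. In bulk RNA, fewer cells of a type and less RNA per cell cannot be told apart.

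The first pattern among the 64 genes was a low signal in cerebral cortex. Cortex had the lowest of the 5 tissue means for 33 genes, or 51.6%, against 20.4% of all genes. A total of 30 members were called lower in cortex than in every other tissue, when 12.1% of all genes were. The median deviation of the members from their own mean over the 5 tissues was -0.71 in cortex, against -0.07 for all genes. Lower calls elsewhere numbered 5 in pancreas (7.81% of members, 15.1% of all genes), 5 in thymus (7.81% and 9.3%), 4 in fibroblast (6.25% and 6.35%) and 2 in testis (3.12% and 4.95%), shares near or below those of all genes. As an alternative, the deposited values of all 30 arrays were quantile normalized together, on top of the authors' normalization within each center. After this joint normalization, 29 of the 30 calls in cortex were kept, when 12.9% of all genes were called there.

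The second pattern was a high signal in both secretory sources. Pancreas and fibroblast both exceeded cortex, testis and thymus for 21 members, when 5.69% of all genes did so. Fibroblast and pancreas held the highest and next highest mean in either order for 28 members, or 43.8%, against 14.3% of all genes. After quantile normalization of all 30 arrays, 20 of the 21 joint calls were kept and the count was 27, when 8.52% of all genes passed. Fitted alone, Oregon gave a joint count of 22 (5.09% of all genes), Nebraska 21 (3.70%) and Yerkes 20 (3.28%). By role, lower calls in cortex were made for 8 of 10 translocon genes, 7 of 10 folding genes, 5 of 12 COPII and SEC22 genes, 3 of 9 cargo and retrieval receptors, 2 of 4 signal peptidase genes, 2 of 3 oligosaccharyltransferase genes, and 1 gene each of the signal recognition particle, the unfolded protein response and COPI. The joint call was passed by 6 folding genes, 4 translocon genes, 3 receptors, 2 genes each of signal peptidase, COPII with SEC22 and COPI, 1 gene each of the signal recognition particle and oligosaccharyltransferase, and no gene of the unfolded protein response. The map of tissue means by role shows these groups.

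**Figure D1:**
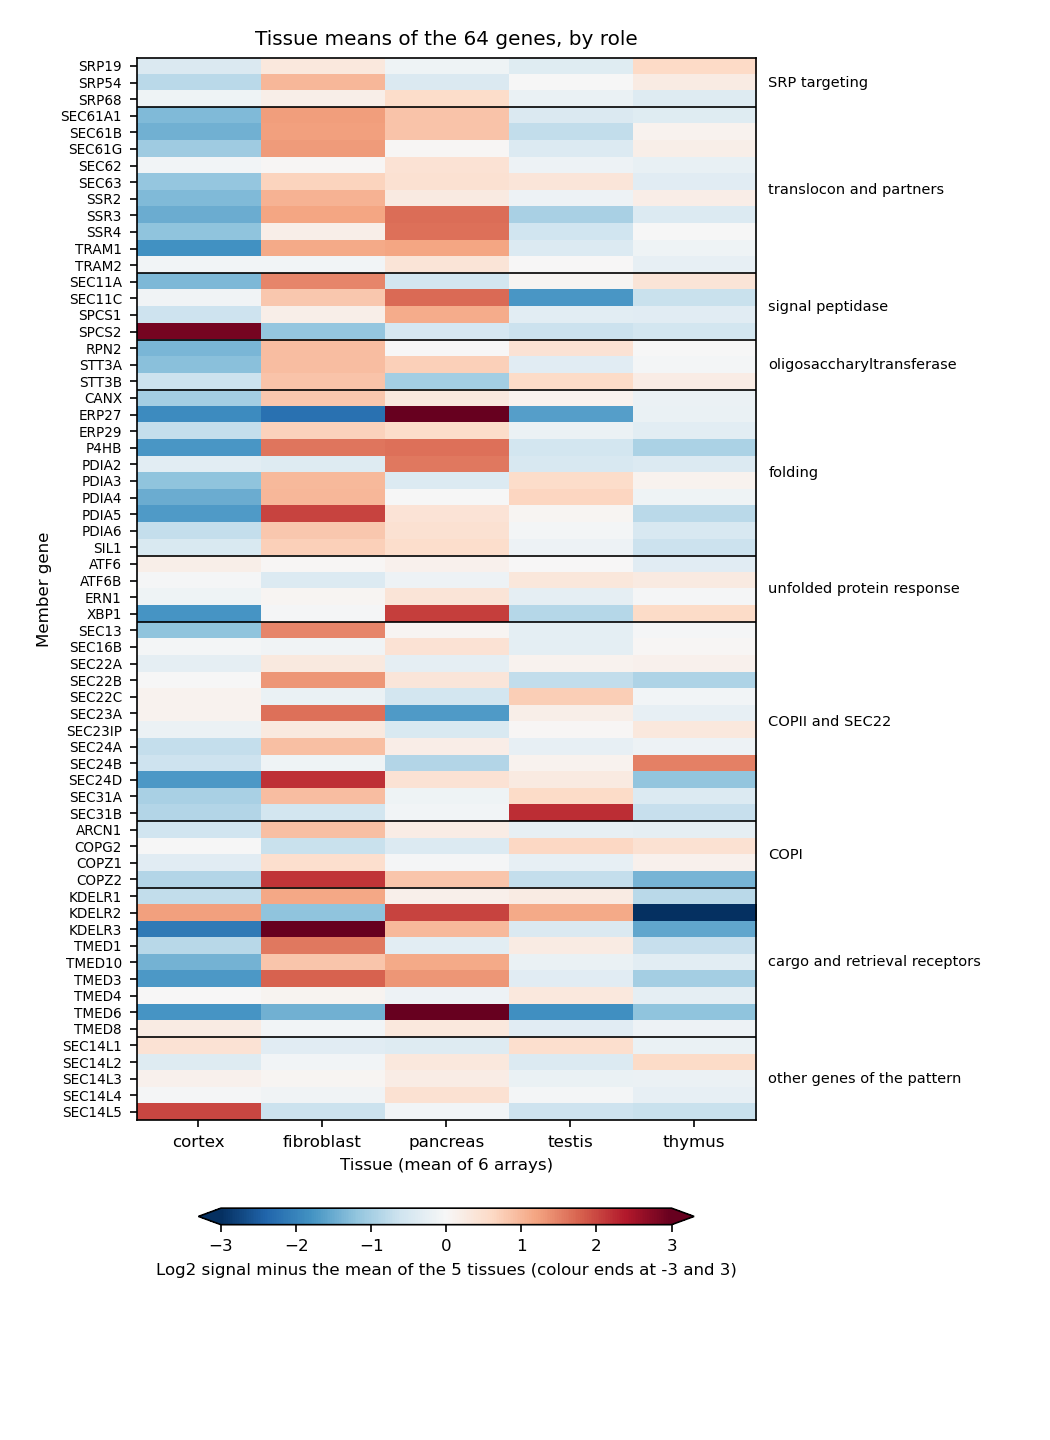
Log2 signal of each gene (rows, grouped by role) in each tissue (columns, mean of 6 arrays), as the deviation from that gene's mean over the 5 tissues; colors end at -3 and 3. The cortex column is below the gene's mean for most translocon, folding and receptor genes, and SPCS2, KDELR2 and the SEC14L genes run otherwise.

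Which of the secretory sources stood higher depended on the normalization. As deposited, 29 members were called higher in fibroblast than in every other tissue (16.7% of all genes) and 16 in pancreas (21.2%). With all 30 arrays quantile normalized together, the counts turned to 12 in fibroblast (13.2% of all genes) and 30 in pancreas (22.2%). In the direct comparison, fibroblast was above pancreas for 34 members (43.1% of all genes) and pancreas above fibroblast for 23 (42.4%) as deposited, against 19 (35.7%) and 38 (41.8%) after the joint normalization. The members' median difference, pancreas minus fibroblast, moved from -0.23 to 0.35, while that of all genes was 0.03 and 0.07. The 4265 genes whose mean signal lay between the quartiles of the members had a median difference of -0.65 as deposited and -0.12 after the joint normalization. Of the 10 translocon genes, fibroblast was above pancreas for 5 as deposited and for 1 after the joint normalization. The count moved from 6 to 3 of 10 folding genes, from 5 to 2 of 9 receptors, from 3 to 1 of 4 COPI genes, and from 2 to 1 both for the signal recognition particle and for oligosaccharyltransferase. It moved from 10 to 9 of the 12 COPII and SEC22 genes and was 1 under both for signal peptidase. The difference between roles was not tested. Calls made under both normalizations were 15 in pancreas and 12 in fibroblast. Those in pancreas were ERP27, PDIA2, XBP1, SSR3, SSR4, SEC62, TRAM2, SRP68, SPCS1, SEC11C, KDELR2, TMED6, TMED10, SEC16B and SEC14L4. Those in fibroblast were SEC61G, SRP54, SEC11A, PDIA5, KDELR3, TMED1, SEC13, SEC22A, SEC22B, SEC23A, SEC24D and COPZ2. The control probesets of GAPDH and ACTB moved with these 2 sources as well. The 3' minus 5' difference of GAPDH, a measure of RNA integrity and labeling length, averaged 1.58 ± 0.49 (SD, n = 6 arrays) in pancreas and 1.81 ± 0.58 in fibroblast, against 0.47 to 0.82 in the other 3 tissues. For ACTB the averages were 1.81 ± 0.47 in pancreas and 2.00 ± 0.55 in fibroblast, against 0.24 to 0.74. Their part in the signals of the members was not tested.

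**Figure D2:**
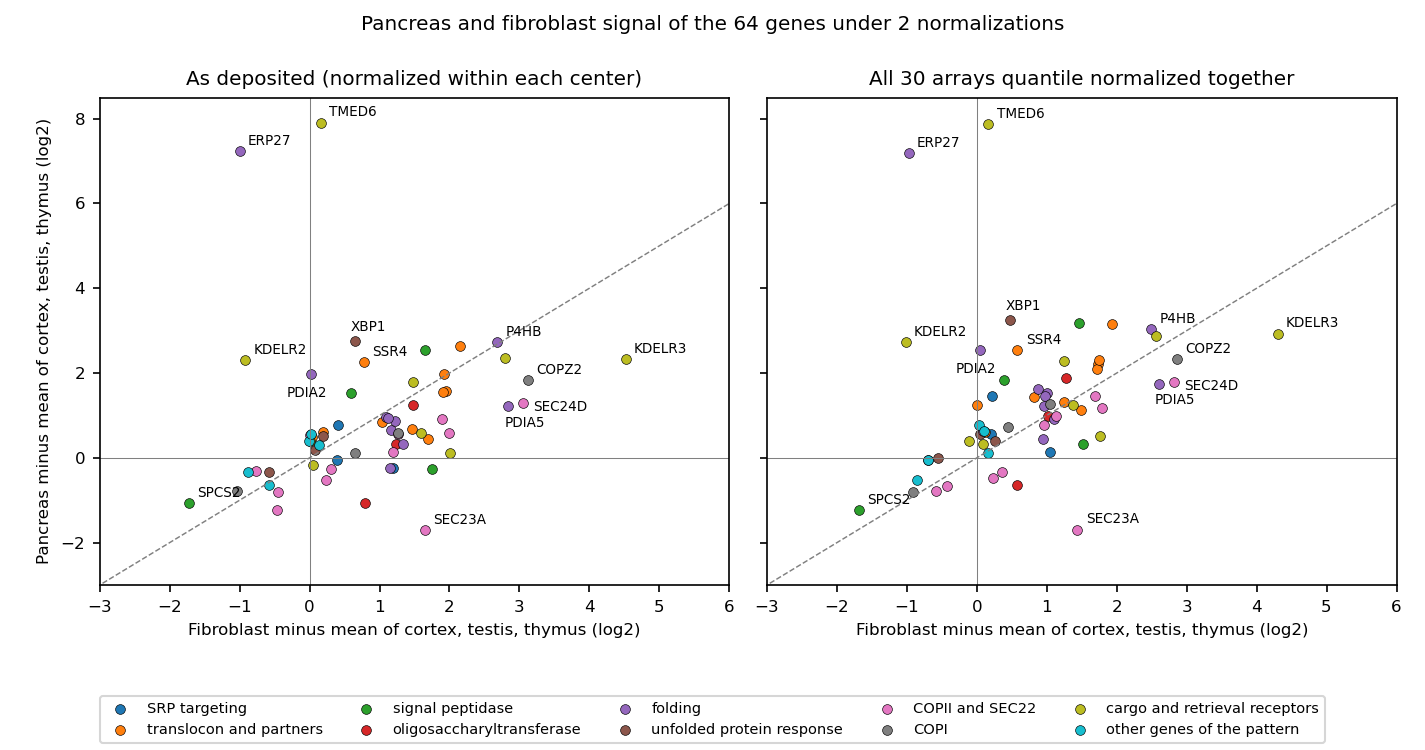
Fibroblast signal (x axis) and pancreas signal (y axis) of each gene, both as log2 differences from the mean of cortex, testis and thymus, colored by role; left as deposited, right after quantile normalization of all 30 arrays; the dashed line marks equal signal. Both axes subtract the same mean, and the cloud moves from mainly below the line (34 members called above in fibroblast, 23 in pancreas) to mainly above it (19 and 38).

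Other members were called higher in cortex (2, against 13.3% of all genes), testis (3, 9.71%) and thymus (3, 12.6%). In all, 53 of 64 members were called higher in some tissue, or 82.8% against 73.4% of all genes, so the count of calls alone sets the members little apart. By a difference of at least 1, 9 members were higher in fibroblast (4.63% of all genes), 5 in pancreas (1.98%), 2 in cortex (5.63%), 1 in testis (1.97%) and 1 in thymus (3.33%). All 53 called members had the same highest tissue in the fits of the 3 centers taken alone. The 53 were called from these same arrays, so this count is not an independent check. Over members called or not, the highest tissue was the same for 87.5%, against 77.0% of all genes.

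At the step of targeting and translocation, 8 of the 10 translocon genes were called lower in cortex. TRAM1, a membrane protein that assists nascent chains at the channel, read 8.43, 8.98 and 9.25 (lowest, median and highest of 6 arrays) in cortex. In fibroblast it read 11.49, 11.79 and 12.24, and in pancreas 11.68, 11.90 and 12.10. Every cortex array lay below every array of the other tissues, and the fibroblast and pancreas arrays overlapped. Cortex was lower than testis, the next tissue, by 1.39 (SE 0.08, limma adjusted p = 1.02e-15). Pancreas minus fibroblast was 0.05 for TRAM1 (SE 0.08, limma adjusted p = 0.596), and it became 0.57 after the joint normalization.

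The channel subunits behaved alike in cortex. SEC61A1, the pore subunit, averaged 8.0 ± 0.33 (SD, n = 6 arrays) in cortex, 10.57 ± 0.35 in fibroblast and 10.19 ± 0.20 in pancreas. SEC61B, a small subunit, averaged 8.85 ± 0.16, 11.52 ± 0.22 and 11.16 ± 0.14 in the same order. Both passed the joint call. After the joint normalization, pancreas was instead called higher, above fibroblast by 0.49 for SEC61A1 and by 0.38 for SEC61B. SEC61G, the other small subunit, was called higher in fibroblast under both normalizations, by 1.08 (SE 0.08) over thymus as deposited and by 0.37 over pancreas after the joint normalization. SEC62 and SEC63, which serve the post-translational route, differed from each other. SEC62 spanned only 0.67 over the 5 tissue means, with its highest value in pancreas by 0.40, or 1.18 after the joint normalization, while SEC63 was lower in cortex than in every other tissue by 0.81 (SE 0.08). The other SEC62 probesets were instead highest in cortex as deposited. The dimmer led there by 0.46 (SE 0.10), which was called, and the brighter by 0.07, which was not.

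The translocon-associated proteins SSR2, SSR3 and SSR4 help some chains insert. SSR4 read 11.85, 12.24 and 12.46 in pancreas, against 10.39, 10.61 and 11.06 in fibroblast and 10.03, 10.62 and 10.93 in thymus. All pancreas arrays lay above all other arrays. The difference from fibroblast was 1.48 (SE 0.10, limma adjusted p = 2.26e-14), called under both normalizations. SSR3 was 7.93 ± 0.10 in cortex, 8.45 ± 0.19 in testis, 9.02 ± 0.24 in thymus, 10.61 ± 0.16 in fibroblast and 11.11 ± 0.18 in pancreas, an order in which each tissue differed from its neighbor by more than the SD of either. Its pancreas lead was 0.49, and 1.22 after the joint normalization. SSR2 was highest in fibroblast as deposited (11.31 ± 0.32), by 0.77 over pancreas, and the joint normalization ended that call and put pancreas 0.08 above. Its signal in cortex was 1.17 below the next tissue (SE 0.07, limma adjusted p = 1.93e-16). Of the 4 other SSR2 probesets, as deposited, 1 also put fibroblast highest, by 0.05, and 1 was called higher in pancreas, by 0.65 (SE 0.12). TRAM2, a relative of TRAM1, was within 0.64 over all tissue means.

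Among the 3 genes of the signal recognition particle the spread was smaller. SRP54, which binds the signal peptide, was highest in fibroblast at 9.10 ± 0.18 and lowest in cortex at 7.30 ± 0.18, and was called under both normalizations. SRP68, a structural protein of the particle, spanned 0.93. The probeset used put pancreas highest by 0.37, or 1.24 after the joint normalization, and another of its 3 probesets put fibroblast highest by 0.70 and pancreas below thymus and testis.

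The signal peptidase genes differed in their highest tissue. SPCS2, a subunit of the complex, read 9.05, 9.35 and 9.43 in cortex. The other tissues read between 4.79 and 6.40 on all their arrays. The difference of 3.39 from pancreas (SE 0.09, limma adjusted p = 4.35e-25) was 3.55, 3.29 and 3.32 at the 3 centers. SPCS2 and SEC14L5 were the 2 members called higher in cortex. SPCS2 had 1 probeset here, and its signal fell below the array median on 24 of 30 arrays, so no second probeset could be set beside it. Whether this probeset measures SPCS2 was not checked here. SPCS1, another subunit, instead averaged 12.03 ± 0.08 in pancreas, above fibroblast by 0.94 (SE 0.07, limma adjusted p = 5.36e-14) and by 1.44 after the joint normalization.

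The catalytic subunits SEC11A and SEC11C were highest in different tissues. SEC11A read 10.74, 10.88 and 11.32 in fibroblast, above thymus by 1.06 (SE 0.07, limma adjusted p = 1.04e-14). SEC11C read 9.70, 10.18 and 10.32 in pancreas and 6.40, 6.64 and 6.80 in testis. Its testis arrays lay below all other arrays, by a mean of 1.09 from thymus (SE 0.11, limma adjusted p = 1.83e-10), while its pancreas and fibroblast arrays overlapped by their range. Both genes were called under both normalizations. For SEC11C the other 2 probesets spanned only 0.81 and 0.22 over the tissue means. Of the other 2 SEC11A probesets, 1 put fibroblast highest by 0.46 (SE 0.10) and 1 was called higher in testis by 0.31 (SE 0.07).

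Of the oligosaccharyltransferase genes, RPN2 and the catalytic STT3A were lower in cortex. RPN2 read 8.94, 9.03 and 9.19 there and 10.32 or more on every other array, a difference of 1.36 from thymus (SE 0.08, limma adjusted p = 9.35e-17). Its lead of 0.49 in fibroblast fell to 0.04 after the joint normalization and was then not called. STT3A averaged 7.70 ± 0.43 in cortex, 9.87 ± 0.47 in fibroblast and 9.65 ± 0.79 in pancreas, where its arrays spread from 8.57 to 10.35. After the joint normalization, STT3A was called higher in pancreas, by 0.60 over fibroblast. STT3B, the other catalytic subunit, was highest in fibroblast (9.80 ± 0.23) and lowest in pancreas (7.95 ± 0.22), but its second probeset was highest in testis by 0.65 (SE 0.09) and lowest in fibroblast.

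Among the folding enzymes, pancreas signal was set apart most for ERP27 and PDIA2. ERP27, a non-catalytic relative of protein disulfide isomerase known from pancreas, read 13.03, 13.04 and 13.29 in pancreas. Thymus followed with 6.43, 7.10 and 7.18, and cortex, fibroblast and testis stayed between 4.61 and 6.04. No array of another tissue came within 5 of the pancreas arrays. The difference from thymus was 6.19 (SE 0.11, limma adjusted p = 1.87e-29). PDIA2, the pancreatic protein disulfide isomerase, read 9.10, 9.21 and 9.40 in pancreas against 6.73 to 7.99 on all other arrays. The probeset used gave 1.90 over cortex (SE 0.10, limma adjusted p = 2.8e-17), while its other probeset gave 11.95 in pancreas and a difference of 5.37 (SE 0.08). The larger difference therefore came from the probeset with the lower mean over all tissues.

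The general disulfide isomerases were spread more widely. P4HB, the best known of them and a subunit of the collagen prolyl hydroxylase, averaged 11.93 ± 0.29 in pancreas, 11.89 ± 0.33 in fibroblast, 9.74 ± 0.24 in testis, 9.33 ± 0.20 in thymus and 8.54 ± 0.27 in cortex. Its lower value of pancreas and fibroblast stood 2.14 above testis, the largest margin of the 21 joint calls. PDIA5 read 9.71, 10.15 and 10.48 in fibroblast and 8.24, 8.40 and 8.83 in pancreas, without overlap. Fibroblast led by 1.62 (SE 0.06, limma adjusted p = 1.32e-20), and by 0.85 after the joint normalization. PDIA4 was low in cortex at 7.17, 7.81 and 8.01, 1.37 below thymus (SE 0.06, limma adjusted p = 8.67e-19), and PDIA3, which acts with calnexin on glycoproteins, was 0.78 below pancreas (SE 0.10). CANX, calnexin itself, was 0.85 below thymus in cortex (SE 0.07). Its lead of 0.51 in fibroblast turned to pancreas by 0.26 under the joint normalization. SIL1, the exchange factor of the chaperone BiP, had the narrowest range of the folding group, and its lead of 0.18 in fibroblast turned to pancreas by 0.47.

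XBP1, the transcription factor of the unfolded protein response that drives expansion of the ER in secretory cells, read 11.26, 11.46 and 11.68 in pancreas. Thymus read 9.76, 9.89 and 10.30, fibroblast 9.08, 9.31 and 9.82, testis 8.25, 8.48 and 8.88, and cortex 7.20, 7.60 and 8.17. Pancreas and cortex each stood clear of every array of the other tissues. Pancreas exceeded thymus by 1.5 (SE 0.09, limma adjusted p = 8.24e-16), and the lead was 1.52, 1.57 and 1.40 at the 3 centers. The sensors ERN1, ATF6 and ATF6B spanned no more than 0.73. ERN1, the kinase that activates XBP1 by splicing, led in pancreas by 0.33 (SE 0.09, limma adjusted p = 0.000876), a call lost after the joint normalization, and its signal was below the array median on 18 of 30 arrays. These probesets give no measure of XBP1 splicing.

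**Figure D3:**
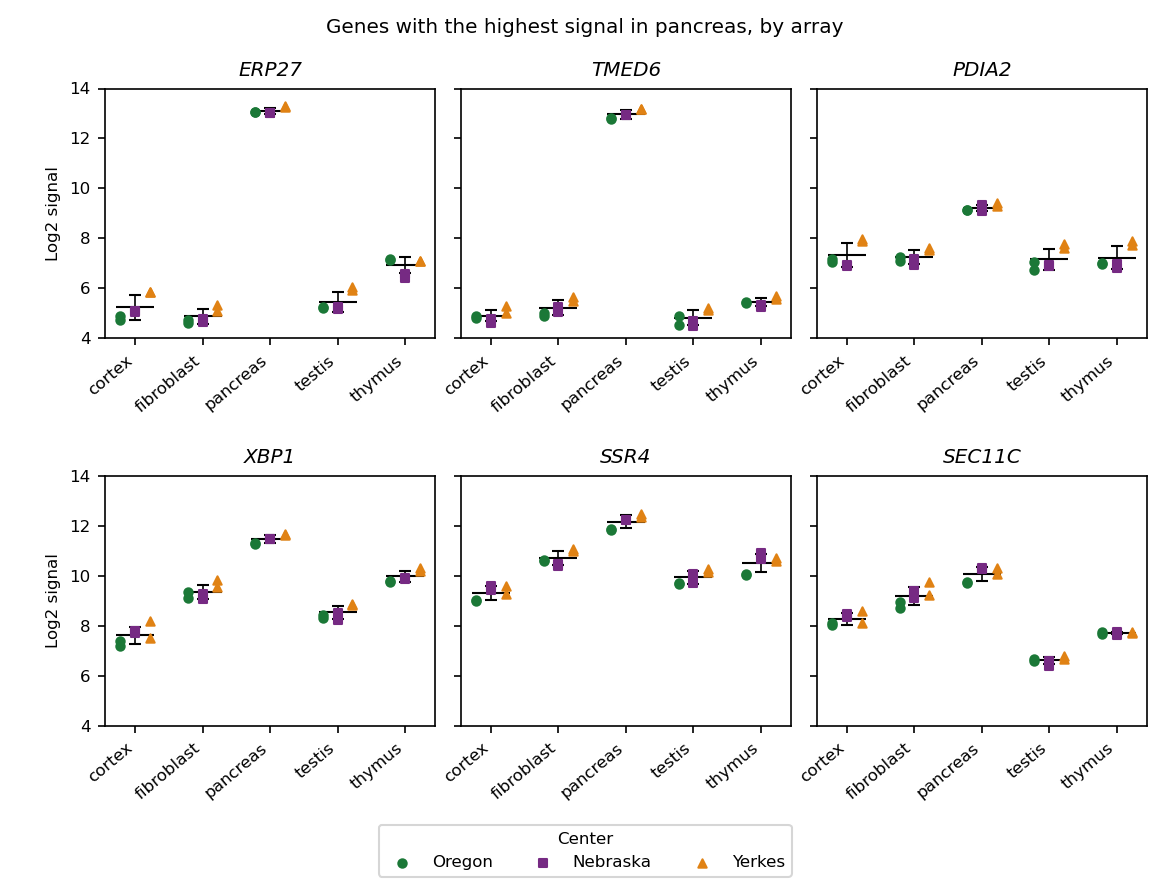
Log2 signal (y axis) of 6 genes with their highest signal in pancreas on each array, by tissue (x axis) and center (symbols); bars are the mean and SD of 6 arrays. ERP27 and TMED6 are near 13 in pancreas and below 7.5 elsewhere, XBP1 also has intermediate signal in thymus and fibroblast, and SEC11C falls to its lowest in testis.

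In the group of cargo and retrieval receptors, TMED6 had the largest difference of all members. This p24 family member read 12.77, 12.94 and 13.18 in pancreas, and 4.50 to 5.71 on all other arrays. Thymus, the next tissue, was exceeded by 7.51 (SE 0.08, limma adjusted p = 2.21e-36). The other p24 genes, which help select cargo for vesicles, did not share this pattern. TMED1 was highest in fibroblast at 9.44, 9.61 and 10.23, by 1.33 over testis (SE 0.07, limma adjusted p = 1.38e-17). TMED3 and TMED10 passed the joint call, TMED3 with 11.46 ± 0.32 in fibroblast and 11.03 ± 0.19 in pancreas against 7.98 ± 0.33 in cortex. The TMED3 lead of 0.43 in fibroblast turned to pancreas by 0.32 after the joint normalization. TMED10 was 8.73 ± 0.21 in cortex, 1.10 below thymus (SE 0.08, limma adjusted p = 1.7e-13), and its pancreas lead of 0.31 became 1.04 after the joint normalization. TMED4 spanned 0.59, and its lead in testis of 0.25 turned to pancreas by 0.09 after the joint normalization.

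The 3 KDEL receptors, which return proteins with a KDEL tail to the ER, each had their own profile. KDELR3 read 11.42, 11.61 and 11.89 in fibroblast, 9.31, 9.47 and 9.63 in pancreas, and 6.12, 6.25 and 6.80 in cortex. Its fibroblast lead was 2.18 (SE 0.06, limma adjusted p = 2.86e-24) and 1.37 after the joint normalization. KDELR2 ran in the opposite order for several tissues. It read 11.39, 11.41 and 11.65 in pancreas, 10.42, 10.72 and 10.98 in cortex, 7.89, 8.25 and 8.59 in fibroblast, and 6.05, 6.19 and 6.57 in thymus. Thymus was 2.00 below fibroblast (SE 0.07, limma adjusted p = 1.23e-21), and pancreas 3.22 above fibroblast (SE 0.07). The lead of pancreas over the next tissue was 0.78, and 1.3 after the joint normalization. All 4 KDELR2 probesets put pancreas highest and thymus lowest, and 3 of them carry the suffix _s_at, which marks probes shared by several transcripts. KDELR1 was highest in fibroblast at 11.03 ± 0.28, by 0.91 over testis (SE 0.08), and after the joint normalization fibroblast and pancreas differed by 0.12 and the call was lost.

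Paralogs among the vesicle coat genes had different highest tissues. SEC23A, an inner COPII coat protein, read 9.85, 10.03 and 10.44 in fibroblast and 6.45, 6.73 and 6.99 in pancreas. All its pancreas arrays were below all others, by 1.46 from thymus (SE 0.09, limma adjusted p = 2.21e-15), and all fibroblast arrays above, by 1.49 from testis (SE 0.09, limma adjusted p = 1.8e-15). SEC24D, a cargo-binding COPII protein, read 9.51, 10.16 and 10.60 in fibroblast and 5.61, 6.25 and 6.71 in cortex, with a lead of 1.75 over pancreas (SE 0.12, limma adjusted p = 8.67e-15) and of 1.03 after the joint normalization. SEC24A followed it with a smaller lead of 0.69 in fibroblast (SE 0.09), a call lost after the joint normalization. SEC24B differed from both. It read 10.17, 10.40 and 10.60 in thymus, against 7.94 to 9.24 on all other arrays, and led testis by 1.42 (SE 0.07, limma adjusted p = 8.79e-18).

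The outer coat showed the same kind of division. SEC31A was highest in fibroblast at 10.83 ± 0.22, by 0.35 over testis (SE 0.07), a call lost after the joint normalization, and lowest in cortex. SEC31B read 9.37, 9.64 and 10.23 in testis, where pancreas reached 8.0 and the remaining tissues 6.33 to 7.47, and led by 2.29 (SE 0.07, limma adjusted p = 1.45e-22). Its other probeset also put testis highest, but by only 0.18 (SE 0.08). SEC13, the partner of SEC31 that also serves the nuclear pore, led in fibroblast by 1.40 over pancreas (SE 0.09, limma adjusted p = 1.04e-15) and by 0.60 after the joint normalization. Of the 12 COPII and SEC22 genes, 4 were called lower in pancreas than in every other tissue, and 3 after the joint normalization. SEC22B, a SNARE of ER to Golgi traffic, led in fibroblast by 0.97 (SE 0.10) and by 0.23 after the joint normalization, SEC22C in testis by 0.63 (SE 0.11), and SEC22A spanned only 0.56.

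**Figure D4:**
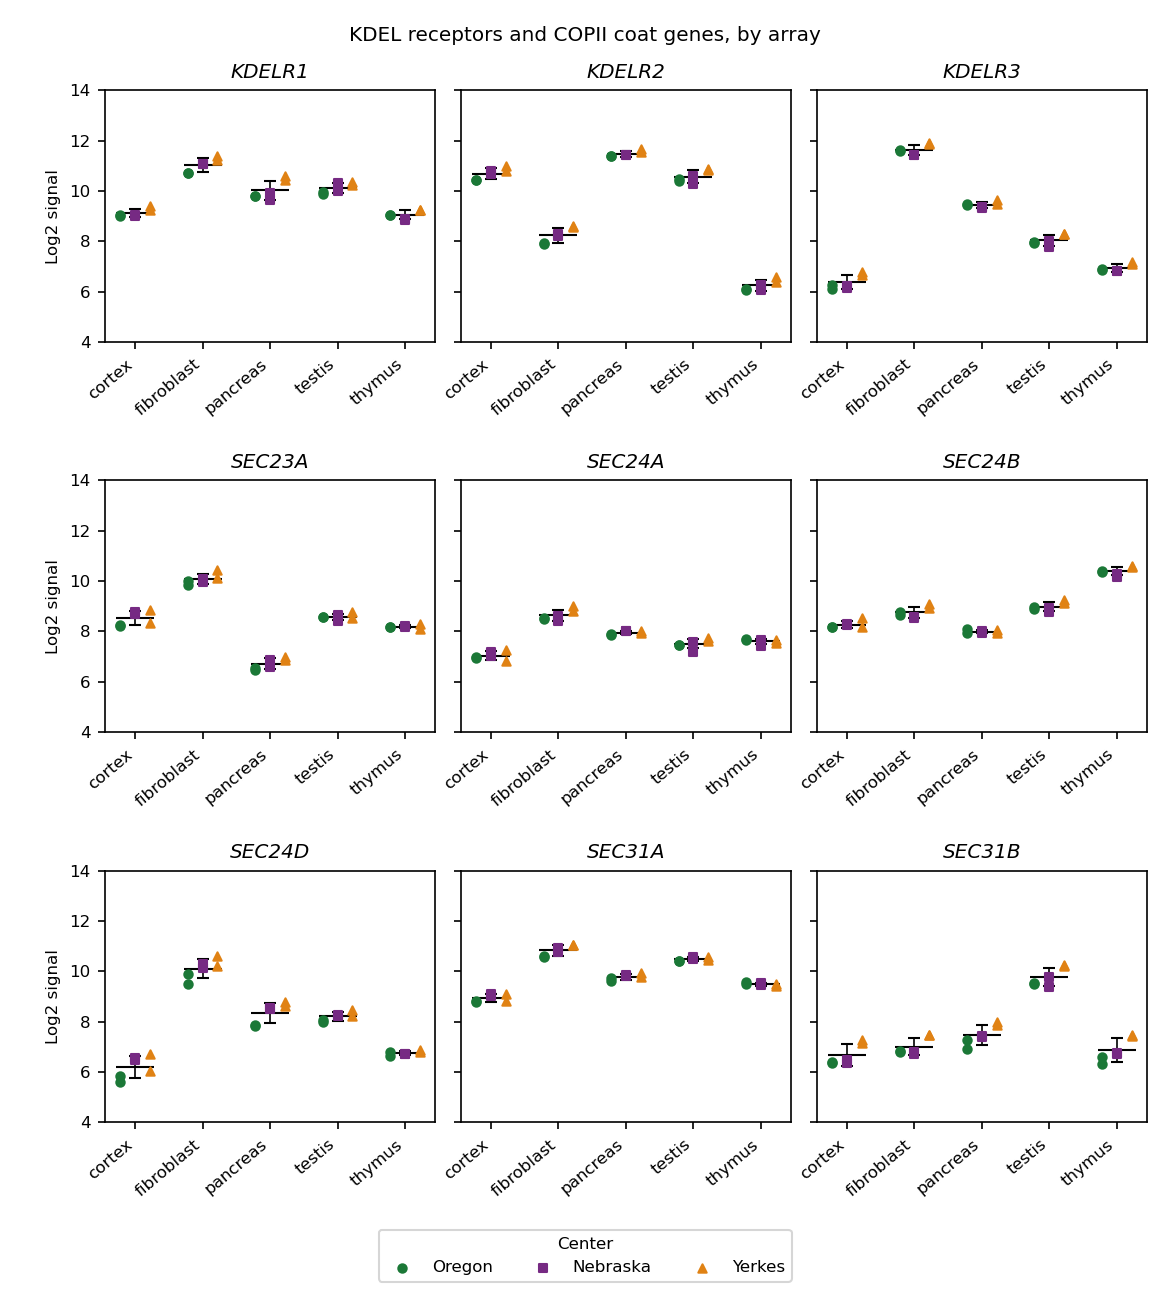
Log2 signal (y axis) of the KDEL receptors and of COPII coat genes on each array, by tissue (x axis) and center (symbols); bars are the mean and SD of 6 arrays. KDELR2 and KDELR3 run in opposite order between fibroblast and pancreas, SEC23A is lowest in pancreas, and SEC24B and SEC31B are highest in thymus and testis.

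COPI was represented by ARCN1, COPG2, COPZ1 and COPZ2. COPZ2 read 9.59, 9.98 and 10.36 in fibroblast, 8.26, 8.72 and 8.98 in pancreas and 7.57 or less on all other arrays. Fibroblast led by 1.3 (SE 0.07, limma adjusted p = 3.57e-17), and by 0.53 after the joint normalization. The other, dimmer COPZ2 probeset was called higher in pancreas as deposited, by 0.35 (SE 0.08). Its paralog COPZ1 spanned only 0.84, and the 0.36 lead of fibroblast turned to pancreas by 0.28. ARCN1 passed the joint call with 10.89 ± 0.27 in fibroblast and 10.22 ± 0.20 in pancreas. Its lead of 0.67 in fibroblast turned to pancreas by 0.21 under the joint normalization, and 2 dimmer probesets of the same gene were instead highest in cortex. COPG2, a coat subunit, averaged 7.64 ± 0.26 in testis and 7.49 ± 0.26 in thymus, a difference that did not pass the test, and was called lower in fibroblast, at 6.34 ± 0.43, by 0.26 from pancreas (SE 0.09). That call was lost after the joint normalization, with a difference of -0.10, and at Oregon fibroblast lay 0.30 above pancreas.

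The 5 SEC14L genes did not follow the others. SEC14L5 read 7.73, 8.08 and 8.58 in cortex and 5.05 to 6.41 on all other arrays, a difference of 2.10 from pancreas (SE 0.08, limma adjusted p = 2.72e-21). None of the 5 was called lower in cortex and none passed the joint call. SEC14L3 was below the array median on all 30 arrays. Its means spanned 0.42. SEC14L4 led in pancreas by 0.49, but its other probeset put testis highest by 0.82.

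**Figure D5:**
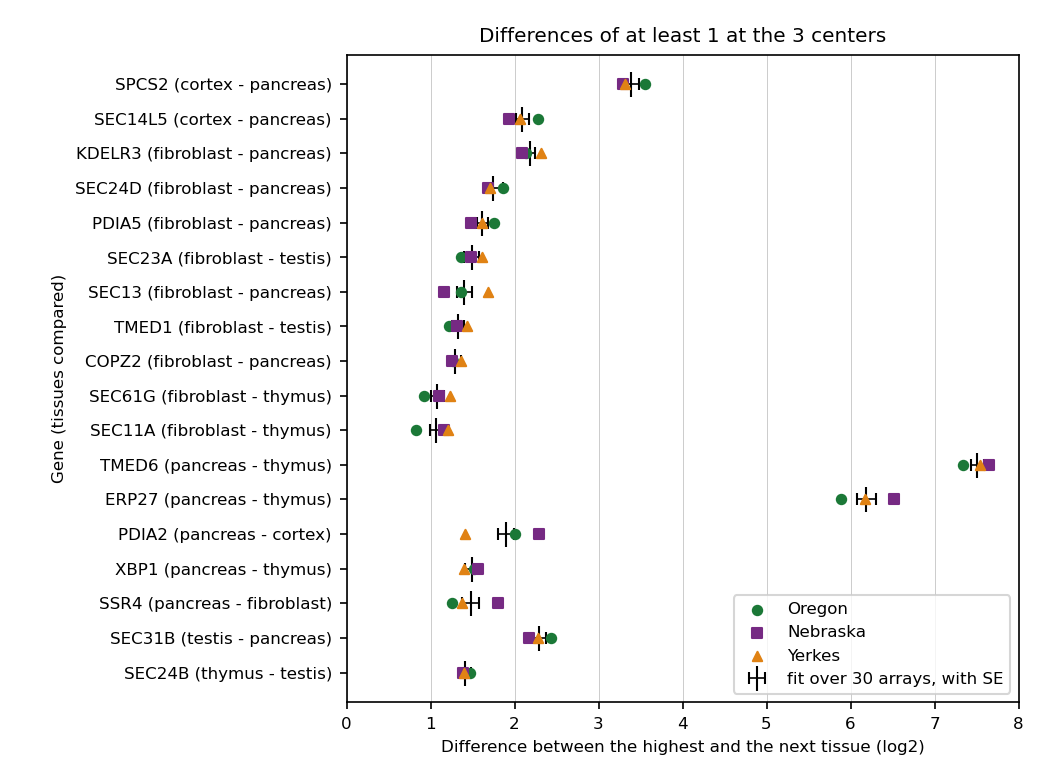
Difference in log2 signal between the highest and the next tissue (x axis) for the 18 genes with a called difference of at least 1 (y axis, tissues in brackets), at each center (symbols, from 2 arrays per tissue) and over 30 arrays with its SE (black). Every difference keeps its sign at all 3 centers, but the genes were called from these same arrays. The centers are farthest apart for PDIA2, at 2.00, 2.29 and 1.41.

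Genes of the same route outside the name pattern were counted with the same fit. Of 48 such genes measured, 21 were called lower in cortex, when 12.1% of all genes were. Higher calls numbered 22 in fibroblast (16.7% of all genes) and 12 in pancreas (21.2%). A total of 19 passed the joint call (5.69% of all genes), and the median deviation of the 48 genes in cortex was -0.60. Counts and differences of these genes are given as deposited only. Among 12 chaperones and oxidation enzymes, ERO1B, an oxidase that recharges disulfide isomerases, led in pancreas by 3.56 (SE 0.10), PPIB, a proline isomerase of collagen folding, led in fibroblast by 1.53 (SE 0.11), and HSP90B1, an ER chaperone of the HSP90 family, was called lower in pancreas, with a difference of -1.17 from thymus (SE 0.06). Of 16 genes for glycan processing and degradation, DERL3, which helps to export misfolded proteins for degradation, led in pancreas by 2.79 (SE 0.09) and EDEM1, a lectin of degradation, in thymus by 1.37 (SE 0.09). Of 6 stress genes, CREB3L1, a factor of collagen secretion, led in fibroblast by 2.01 (SE 0.11), and BHLHA15 (MIST1), a factor of acinar cells, in pancreas by 1.22 (SE 0.09). Of 14 further genes for vesicle export, 7 were higher in fibroblast and 2 in pancreas. Of 7 markers of plasma cells, which also carry much ER, and of B cells, 4 were called higher in thymus. SDC1 was instead called higher in fibroblast by 2.35 (SE 0.10) and CD79A in pancreas by 0.21 (SE 0.07), and CD79B was not called. The mean of the list ran from 7.18 to 7.85 on the thymus arrays against 5.59 to 6.99 on the arrays of the other tissues. The part of plasma cells and B cells in the thymus signals of XBP1 and ERP27 was not tested.

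Tissue differences that depended on the center were as frequent among the members as elsewhere, with a tissue by center interaction in 22 of 64 genes, or 34.4%, against 33.4% of all genes. Probesets of the same gene were less uniform. Of 39 members with several probesets, all the others had the same highest tissue for 16 and at least 1 had another for 23. For 13 members another probeset was itself called higher in another tissue.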

How the data were processed

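Signals of 52865 probesets on 30 rhesus macaque GeneChips were used. Per the study's methods and the labels, the authors deposited log2 values after MAS background correction, quantile normalization of the arrays of each center separately and RMA summarization of all 30 arrays, and these steps were not repeated. A probeset was used where the platform annotation gave 1 symbol (24969 probesets, 14133 genes), and the probeset with the highest mean represented its gene. Entrez IDs of 62 of 64 members carried the same symbol in RefSeq (assembly T2T-MMU8v2.0), all but TMED10 and SRP19. Tissue differences were fitted with limma 3.58.1 in R 4.3.3 on tissue and center over all probesets, with Benjamini-Hochberg adjustment for each of 10 pairs of tissues. The interaction was a moderated F over 8 terms. On simulated data, 98.5% of 200 genes raised in pancreas were recovered. The simulation held only the spread between aliquots, with no other tissue differences and no tissue by center interaction. Its rate therefore does not measure recovery in the real data. Named genes were those called higher by at least 1 (the 15 largest) or lower by at least 1 (the 8 largest), the widest and narrowest of each role, the 3 with the lowest interaction p and up to 4 with discordant probesets; other members named were chosen for their role after their values were seen. The members and lists were chosen with earlier results of these data known. Arrays give no read depth, so their number limits the precision. Mean signal per array was 6.32 to 6.39 at Oregon and Nebraska and 6.90 to 6.93 at Yerkes, and SDs over 6 arrays hold that shift. No sequence was used here.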

Additional observations from a re-analysis of the deposited data

Results flagged for a closer look

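Arrays of the 39 named genes were compared within each tissue after subtracting each center's mean, and 14 of 195 groups of 6 arrays held an array set apart by Dixon's test. Chance flags about 1 in 20 groups. The testis array of Nebraska aliquot 1 was set apart for 4 genes, with gaps to the nearest of the other 5 arrays of -0.28 for KDELR2, -0.28 for SSR4, -0.23 for SIL1 and -0.22 for XBP1. Gaps in thymus were -0.31 for SEC14L3 (Oregon aliquot 1), 0.25 for SEC14L4 (Yerkes aliquot 1), 0.29 for SEC14L5 (Nebraska aliquot 2), -0.13 for SEC24B (Nebraska aliquot 1) and -0.25 for SEC31B (Oregon aliquot 2). The remaining gaps were 0.28 for SEC14L5 in testis (Yerkes aliquot 1), -0.20 for SPCS1 in cortex and -0.21 in pancreas (Yerkes aliquot 1 in both), 0.26 for SPCS2 in pancreas (Nebraska aliquot 2) and 0.16 for TMED4 in fibroblast (Oregon aliquot 1). None of these gaps, on the log2 scale and negative where the array was the lowest, was larger than that of SEC14L3.

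For 13 named genes the tissue differences depended on the center by the interaction term. The lead of the highest tissue over the next spanned 0.88 between centers for PDIA2 and 0.63 for ERP27. For STT3A the span was 0.65, from 0.66 for fibroblast minus pancreas at Oregon to 0.01 at Nebraska and Yerkes. For TMED10 it was also 0.65, since pancreas minus fibroblast was 0.73 at Nebraska against 0.11 at Oregon and 0.08 at Yerkes. The spans were 0.56 for SSR4, 0.49 for RPN2, 0.47 for SEC14L4, 0.44 for SRP54, 0.37 for TRAM2, 0.33 for SSR3, 0.24 for TRAM1, 0.15 for COPG2 and 0.08 for PDIA4. The pancreas and fibroblast order of TRAM1 changed sign, from 0.14 at Oregon and 0.11 at Nebraska to -0.10 at Yerkes.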

How the results depend on the processing

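Of 206 values of the 18 counts under the alternatives, 168 were within 1.5 times the main count, and of 406 values of 37 named differences, 376 kept their direction and their side of the threshold, 22 kept only the direction and 8 turned. Quantile normalization of all 30 arrays gave 12 members higher in fibroblast (4 by at least 1), 30 in pancreas (12 by at least 1) and 1 in thymus. It also gave 3 lower in pancreas, 38 with pancreas above fibroblast and 19 the other way. Among the named differences, it turned the leads of ARCN1 (-0.21), COPZ1 (-0.28), SIL1 (-0.47) and TMED4 (-0.088). The fibroblast leads of CANX, PDIA6, SEC61A1, SEC61B, SEC63, SSR2 and TMED3 were not among these differences and turned to pancreas as well. With the mean of all probesets of a gene, 4 members were higher in cortex, 5 in testis and 3 lower in pancreas, and the leads of ARCN1 (-0.20), SEC14L4 (-0.21), SRP68 (-0.71) and STT3B (-0.82) turned. Without the center term, 10 were higher in pancreas, 1 in thymus, 12 had pancreas above fibroblast, and the lower calls were 2 in pancreas, 2 in thymus, 1 in testis and 1 in fibroblast. Restricted to the brighter probesets (upper 50% of mean signal), 1 was higher in cortex, also by at least 1. With aliquots averaged, 1 was lower in fibroblast, 1 in testis and 3 in thymus. Leaving out Yerkes gave 2 lower in fibroblast and 1 in testis, and leaving out Oregon 1 in testis. Without replicate 1 or 2 there was 1 higher in thymus, 1 lower in fibroblast and 1 in testis, 2 to 3 lower in pancreas, and 3 to 4 lower in thymus. Without the pancreas arrays, a setting chosen after seeing the data, 6 were higher in thymus, 1 lower in testis, 38 higher in fibroblast and 34 lower in cortex. The replicate block gave 1 lower in testis and changed no other count by over 1.5 times. Its numbers do not pair the samples, since the aliquots' deviations correlated between tissues at medians of -0.01, 0.04 and 0.00 at the 3 centers.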
